A study of Mus musculus with 5 samples.

Results

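In adult mouse heart, 201 regions of the Gata4 list overlapped both a region of the Nkx2-5 list and a region of the Tbx3 list by at least 1 bp on chromosomes 1 to 19. They were 11.5% of the 1742 Gata4 regions on these chromosomes, in a series whose 3 region lists hold 21703 regions in all. They were chosen from the called positions themselves, so the overlap is a description and not a test. Of the 201 regions, 27 were set apart as likely technical because a region of some list there started before 3.1 Mb or was 400 bp or wider. The other 174 are called shared regions here and are described by locus (positions are mm9, counted from 1).

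The Tbx3 list came from chromatin immunoprecipitation and sequencing (ChIP-seq) of adult hearts of genotype Myh6-MCM;CAG-CAT-TBX3. Myh6-MCM is a recombinase transgene driven by the Myh6 promoter, which is active in cardiomyocytes, and CAG-CAT-TBX3 is the TBX3 transgene it acts on. The Nkx2-5 and Gata4 lists came from adult wildtype hearts. All mice were of FVB/N background, each list comes from 1 library, and how many hearts went into a library is not stated in these sources. The other 2 of the 5 libraries, the Tbx3 antibody in Myh6-MCM hearts and p300 in wildtype hearts, were not analysed here. Genotype and factor cannot be told apart for Tbx3, and a shared region joins calls made in different animals, so it does not show that the factors sat on the same DNA molecule. With no replicate and no read number per region, no test between groups was possible, and every interval below covers only the counting of regions or their spread within these lists.

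Gata4 is a zinc-finger factor and Nkx2-5 a homeodomain factor; both are expressed in cardiomyocytes, bind each other and activate cardiac genes together. Tbx3 is a T-box repressor that marks the conduction system of the heart, where it holds down genes of the working myocardium. T-box factors of the heart also bind Nkx2-5 and Gata4, and the repressor Tbx3 competes with activating T-box factors for the same elements. Places where all 3 factors are found are therefore of interest as possible shared regulatory elements. No genome or gene annotation of mm9 was used here, so loci are given by position, without gene names or base sequence.

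The shared regions were compact. The bases from the first to the last of the 3 calls numbered a median of 283.5 (interquartile range 225 to 329.8), and a median of 97.5 bases (95% interval 86 to 105) lay in all 3 calls. At least 100 bases were common to all 3 calls in 83 of 174 regions (47.7%, exact 95% interval 40.1 to 55.4%), and at least 50 in 135 (77.6%, 70.7 to 83.5%). No base was common to all 3 calls in 3 shared regions. They were chr11:84637180-84637436, chr16:29946165-29946342 and chr18:35182056-35182300 (Gata4 positions), and in each the Nkx2-5 and Tbx3 calls overlapped separate parts of the Gata4 call. The label "together" thus holds at the level of shared bases for 171 of the 174 regions.

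**Figure D1:**
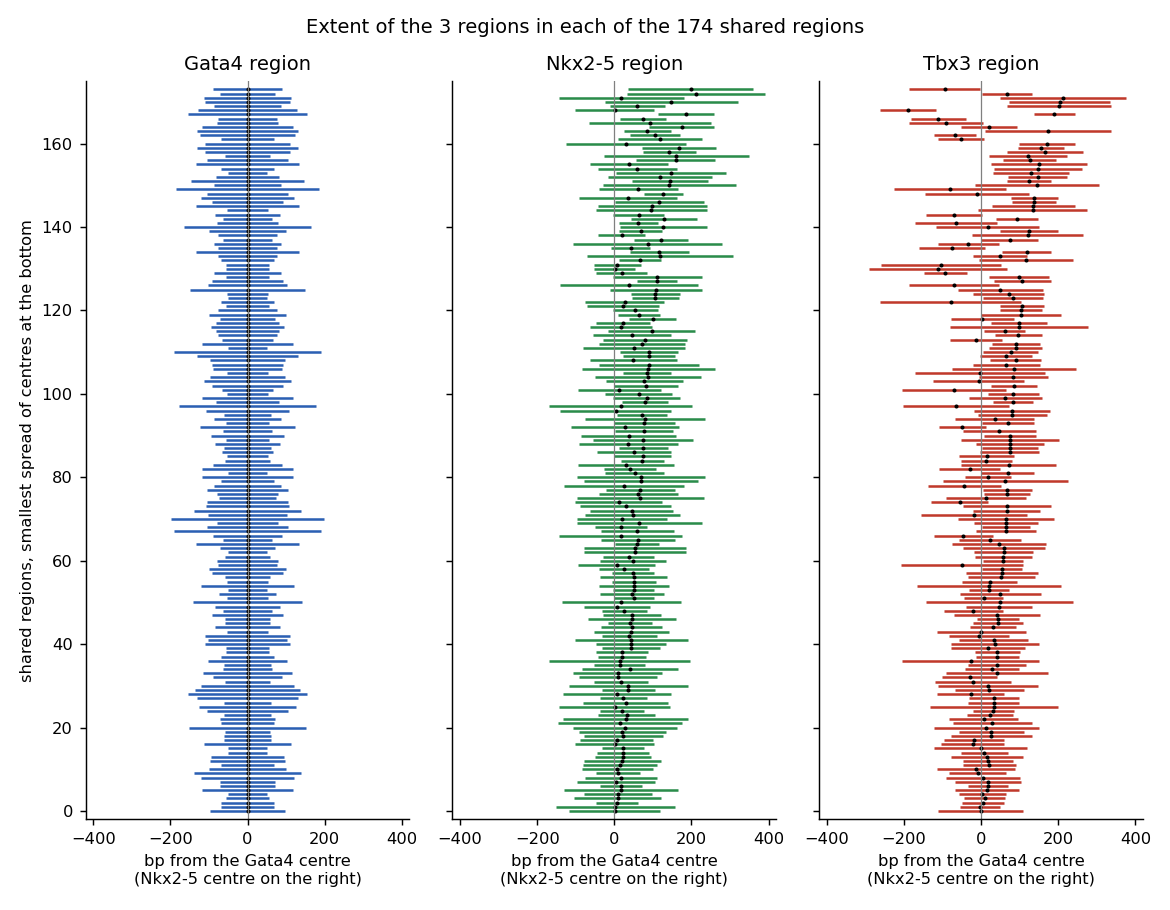
Each row is 1 of the 174 shared regions, and the bar is the extent of the Gata4, Nkx2-5 or Tbx3 call in bp from the Gata4 centre, with a black dot at its own centre. Rows are ordered by the spread of the 3 centres and turned so that the Nkx2-5 centre is always on the right; the Tbx3 centre then falls on the right too in 132 rows.

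Of the 3 pairs of calls in shared regions, Nkx2-5 and Tbx3 had the smallest median distance, though they were not the closest pair in most regions. Their centres were a median of 30 bp apart (95% interval 23 to 38.5), against 48 bp for Gata4 and Nkx2-5 (40.5 to 54.5) and 57.75 bp for Gata4 and Tbx3 (47 to 66). Nkx2-5 and Tbx3 formed the closest pair in 80 of 174 regions (46.0%), Gata4 and Nkx2-5 in 53 (30.5%), Gata4 and Tbx3 in 38 (21.8%), and 3 were tied. Gata4 was the least often central factor: its centre lay between the other centres in 42 regions (24.1%, exact 95% interval 18.0 to 31.2%), the Nkx2-5 centre in 71 (40.8%, 33.4 to 48.5%) and the Tbx3 centre in 61 (35.1%, 28.0 to 42.6%). The Nkx2-5 and Tbx3 centres therefore stood on the same side of the Gata4 centre in 132 regions (75.9%, 68.8 to 82.0%). Both offsets are taken from the same Gata4 centre, so they are not independent of each other. Along the chromosome, Nkx2-5 was at the higher position than Gata4 in 86 regions and Tbx3 in 84.

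These distances are bounded by the overlap that chose the regions. Each is therefore also set beside the same distance where just that pair overlaps. Gata4 and Nkx2-5 centres were a median of 48 bp apart in shared regions and 42 bp apart (38.5 to 46) in the 365 Gata4 regions shared with Nkx2-5 alone. Gata4 and Tbx3 centres were 57.75 bp apart in shared regions and 69.25 bp apart (56 to 80) in the 158 shared with Tbx3 alone. Nkx2-5 and Tbx3 centres were 30 bp apart in shared regions and 36 bp apart (34 to 38.5) in the 2098 pairs that no Gata4 region overlapped. The intervals overlap in all 3 comparisons, and no difference was tested. Where just that pair overlapped, the 3 medians stood in the same order (36, 42 and 69.25 bp). The order of the pairs was thus not particular to shared regions.

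**Figure D2:**
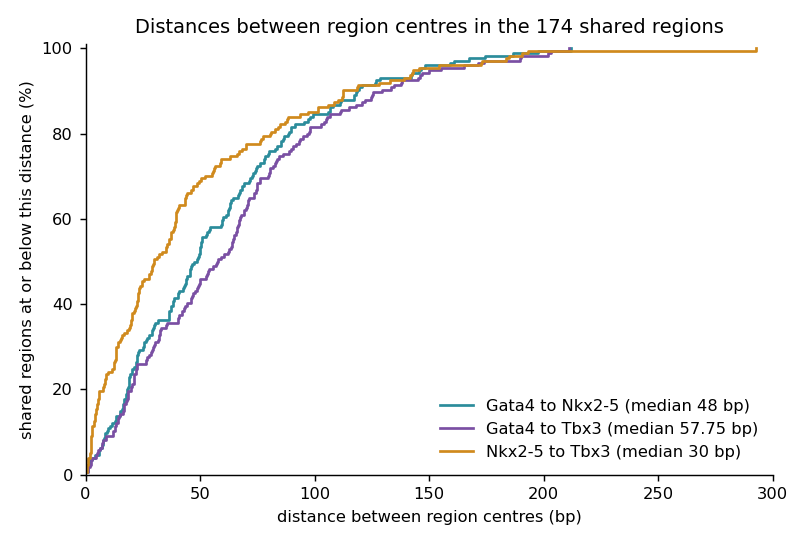
Cumulative share of the 174 shared regions (y axis, %) whose region centres lie at or below a given distance (x axis, bp), for the 3 pairs of factors. The Nkx2-5 to Tbx3 line (median 30 bp) rises before the Gata4 to Nkx2-5 line (48 bp) and the Gata4 to Tbx3 line (57.75 bp).

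The tightest shared regions had all 3 centres within a few bases. At chr17:5997885-5998077 the Gata4, Nkx2-5 and Tbx3 calls were 193, 236 and 221 bp wide and their centres spread over 2.5 bp. At chr12:109475990-109476129 the calls were 140, 308 and 104 bp wide and the centres spread over 4 bp. At chr4:70039151-70039290 the calls were 140, 109 and 108 bp wide with centres within 7.5 bp. Narrow and broad calls were thus found among the tightest. The others of the 12 tightest were chr8:94511926-94512035 (9 bp), chr1:129613105-129613207 (10.5 bp), chr9:119378868-119379102 (17 bp), chr1:167040909-167041049 and chr13:77578168-77578311 (17.5 bp each), chr18:25020113-25020351 (18 bp), chr5:104257816-104258092 (19 bp), chr17:6173042-6173239 (20 bp) and chr7:20506390-20506584 (21 bp). Small spreads were also found among regions set apart as likely technical. The 5 at chr9:3000003-3035979 had spreads of 11, 12, 5.5, 42.5 and 97 bp. Start and width were the only marks used to set regions apart, so technical regions may remain among the 174. Over all 174, the spread had a median of 74.25 bp, was at most 50 bp in 54 regions and reached 150 bp or more in 19.

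At the other end, chr16:29946165-29946342 had the largest spread, 292.5 bp, with Tbx3 at 29946068 to 29946249 and Nkx2-5 at 29946290 to 29946612. A region at chr8:129191918-129192142 had a spread of 211 bp and still 65 bases in common, since its Nkx2-5 and Tbx3 calls were 325 and 327 bp wide. The 6 loosest regions were picked after their values were seen, and these are 2 of them.

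The 12 shared regions with the best mean width rank over the 3 lists began with chr9:35112797-35113080, where Gata4 was 284 bp wide, Nkx2-5 309 bp (35112803 to 35113111) and Tbx3 381 bp (35112797 to 35113177). This locus also had the most bases common to all 3 calls, 278 of the 284 bases of the Gata4 region. The second was chr7:119799702-119800057 (Gata4 356 bp), with Nkx2-5 of 372 bp at 119799710 to 119800081 and Tbx3 of 274 bp at 119799678 to 119799951. The third was chr8:35103499-35103803 (Gata4 305 bp), with Nkx2-5 of 271 bp at 35103489 to 35103759 and Tbx3 of 272 bp at 35103502 to 35103773. In all 3 of these, more than 200 bases were common to the calls: 278, 242 and 258.

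The fourth was chr12:81237285-81237534, whose 250 bp Gata4 call lay wholly inside a 288 bp Nkx2-5 call and a 332 bp Tbx3 call. The same nesting was seen at chr9:67011705-67011909, with a 205 bp Gata4 call inside Nkx2-5 and Tbx3 calls of 364 and 354 bp. At chr11:65022951-65023192 the Gata4, Nkx2-5 and Tbx3 calls were 242, 307 and 258 bp wide and shared 233 bases. In these 3 regions all or nearly all of the Gata4 call lay in both other calls. At chr19:53876572-53876791 the calls shared 39 bases and at chr16:38350515-38350780 they shared 106, and at both the Nkx2-5 and Tbx3 calls started before the Gata4 call and ended inside it. The rest of the 12 were chr19:53790986-53791384, chr8:129191918-129192142, chr3:101355809-101356136 and chr10:68681763-68682133, with 197, 65, 136 and 105 common bases.

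In some shared regions 1 call enclosed the others. The Nkx2-5 call contained both other calls in 22 shared regions (12.6%, exact 95% interval 8.10 to 18.5%), the Gata4 call in 14 (8.05%, 4.47 to 13.1%) and the Tbx3 call in 7 (4.02%, 1.63 to 8.11%). The Gata4 call lay inside both others in 12 regions, the Tbx3 call in 8 and the Nkx2-5 call in 3. Nkx2-5 was the widest call in 76 regions, Gata4 in 49 and Tbx3 in 49, with 2 ties counted for the first of the tied factors in the order Gata4, Nkx2-5, Tbx3. Widths of the 3 calls at a locus had small positive correlations (Spearman's rho across the 174 regions 0.25 for Nkx2-5 and Tbx3, 0.19 for Gata4 and Nkx2-5, 0.16 for Gata4 and Tbx3), and all of them share the same lower bound of 100 bp.

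Nkx2-5 calls had the widest median of the 3 factors in shared regions. It was 191.5 bp in shared regions (95% interval 173 to 205), against 173 bp where only Gata4 was also present (164 to 180), 155 bp where only Tbx3 was (151 to 157), and 133 bp for Nkx2-5 alone (132 to 134). Gata4 calls had a median of 170 bp in shared regions (155 to 183), 161 bp with Nkx2-5 only (152 to 173), 147 bp with Tbx3 only (133 to 163) and 142 bp alone (139 to 146). Tbx3 calls did not follow this order: 162 bp in shared regions (150 to 179), 151.5 bp with Gata4 only (142 to 162), 165 bp with Nkx2-5 only (161 to 169) and 143 bp alone (142 to 144).

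Width enters the overlap rule, because a wider call has more room to overlap, so these medians are no test. Where partners were instead chosen by centres within 250 bp, the Nkx2-5 median was 187.5 bp with all 3 factors and 168 bp with Gata4 only, and the intervals overlapped (169 to 201 and 159 to 176). The Gata4 medians were then 160 bp with all 3 factors and 161 bp with Nkx2-5 only, which turns the order of these 2 classes. Calls wider than the median of their list made up 122 of the 174 shared regions for Nkx2-5 (70.1%; 49.4% of its whole list on chromosomes 1 to 19), 106 for Gata4 (60.9%; 49.6%) and 104 for Tbx3 (59.8%; 49.7%). All 3 calls were above their medians in 52 regions, and in 11 none was.

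**Figure D3:**
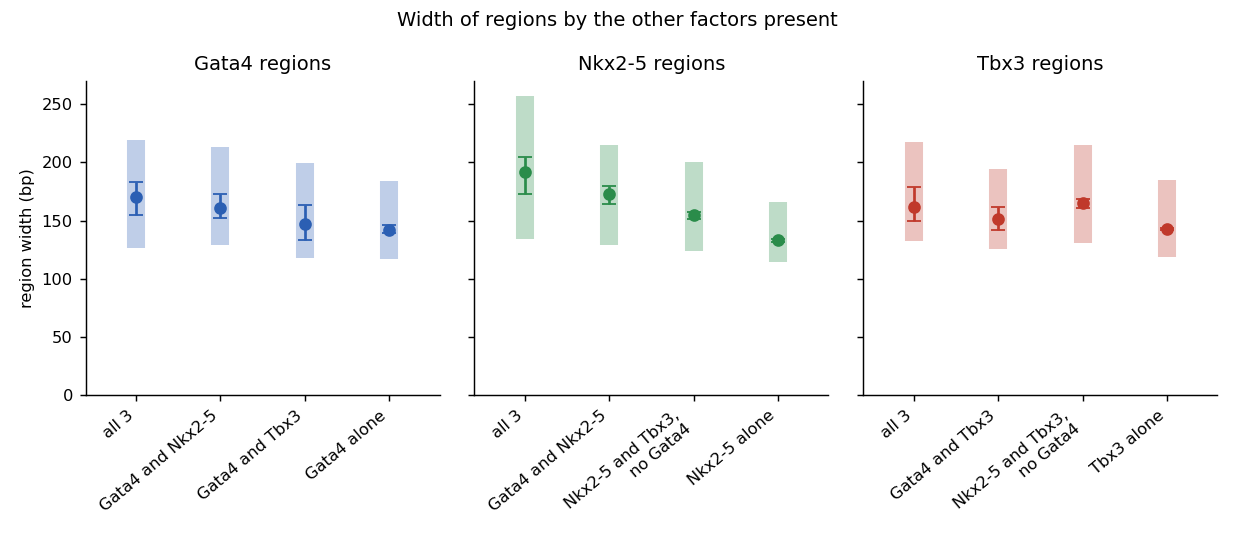
Region width (bp) of Gata4, Nkx2-5 and Tbx3 calls by which other factors overlapped them; dots are medians with exact 95% intervals and bars are interquartile ranges, without the regions set apart. Nkx2-5 medians step down from 191.5 bp with all 3 factors to 133 bp alone, whereas Tbx3 medians are close with all 3 factors (162 bp) and with Nkx2-5 only (165 bp).

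Shared regions often lay amid further calls that did not overlap their Gata4 call. A further region of any factor lay within 10 kb of 106 of the 174 shared regions (60.9%, exact 95% interval 53.2 to 68.2%), against 48.4% of all 1665 Gata4 regions not set apart. The other classes had 52.9% (47.6 to 58.1%) for Gata4 regions shared with Nkx2-5 only, 55.1% (47.0 to 63.0%) for those shared with Tbx3 only and 43.4% (40.2 to 46.6%) for Gata4 alone. By factor, a further Nkx2-5 region lay within 10 kb of 78 shared regions (44.8%; 29.4% of all Gata4 regions not set apart), a further Tbx3 region of 80 (46.0%; 35.6%) and a further Gata4 region of 38 (21.8%; 14.4%). These calls did not enter the rule at the shared region they were counted for, but some entered it at another. Another shared region lay within 10 kb of 14 of the 174, so the shares are not fully independent of the rule. Calls of the same factor close by can still be parts of 1 stretch. Further regions of all 3 factors lay within 10 kb of 21 shared regions (12.1%, 7.63 to 17.9%). This last share was not computed for other Gata4 regions, so it has no background here.

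Within 2 kb, 59 shared regions had a further region of any factor (33.9%, exact 95% interval 26.9 to 41.5%). The share was 26.4% over all Gata4 regions not set apart. It was 30.1% (25.5 to 35.1%) for those shared with Nkx2-5 only, 29.1% (22.2 to 36.9%) for those shared with Tbx3 only and 23.2% for Gata4 alone. The further region was Nkx2-5 for 36 shared regions (20.7%, 13.0% of all), Tbx3 for 40 (23.0%, 16.3% of all) and Gata4 for 16 (9.20%, 7.57% of all). Gata4 regions shared with Nkx2-5 only had 17.3% for Nkx2-5, 20.8% for Tbx3 and 8.22% for Gata4. Those shared with Tbx3 only had 16.5%, 16.5% and 6.96%.

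The next band leaves out these nearest calls. A further Nkx2-5 region lay 2 to 10 kb away from 56 shared regions (32.2%, exact 95% interval 25.3 to 39.7%), against 20.1% of all Gata4 regions not set apart; a Gata4 region lay there for 24 (13.8%, 9.04 to 19.8%; 8.23% of all) and a Tbx3 region for 62 (35.6%, 28.5 to 43.2%; 26.2% of all). Gata4 alone had 16.6% (14.3 to 19.1%) for Nkx2-5, 7.02% (5.50 to 8.82%) for Gata4 and 22.6% for Tbx3. From 10 to 50 kb away, the shared regions had 47.1% for Nkx2-5 and 20.1% for Gata4. These were close to the 43.8% and 19.5% of all Gata4 regions, while Tbx3 stood at 67.2% against 54.2%. Gata4 regions shared with Tbx3 only had 68.4% for Tbx3 there, and those shared with Nkx2-5 only had 57.5%. At 2 to 10 kb these classes had 34.2% and 27.7% for Tbx3, 22.8% and 22.5% for Nkx2-5, and 7.59% and 9.04% for Gata4. In these 2 bands the Tbx3 shares were thus similar wherever Gata4 and Tbx3 calls overlapped. Within 2 kb the Tbx3 share was 23.0% in shared regions (17.0 to 30.0%) and 16.5% with Tbx3 only (11.0 to 23.2%). With Nkx2-5 only it was 20.8% (16.8 to 25.4%). Further regions of any factor were also counted per 10 kb of sequence. Within 2 kb, at 2 to 10 kb and at 10 to 50 kb, shared regions had 1.64, 0.769 and 0.364. Gata4 alone had 0.971, 0.397 and 0.263. Gata4 regions shared with Nkx2-5 only had 1.46, 0.512 and 0.324, and those shared with Tbx3 only had 1.22, 0.522 and 0.358. No difference between classes was tested, as regions of 1 library are not replicates.

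**Figure D4:**
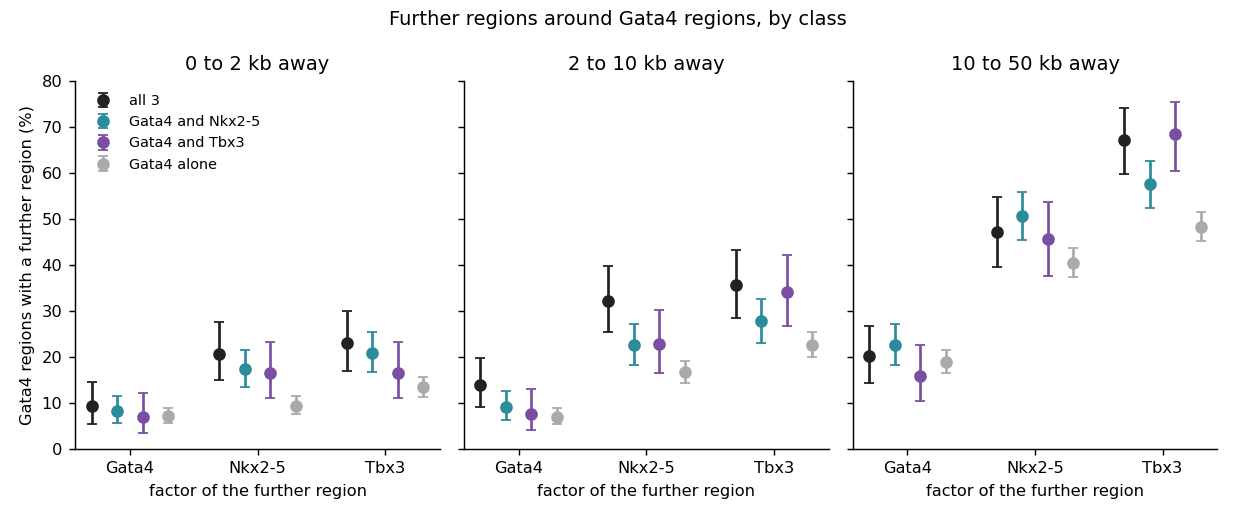
Share (%) of Gata4 regions with a further region of each factor (x axis) at 0 to 2, 2 to 10 and 10 to 50 kb, by class; dots are shares and bars exact 95% intervals. At 2 to 10 kb the shared regions (all 3) have 32.2% for Nkx2-5 and Gata4 alone 16.6%, and at 10 to 50 kb they have 47.1% and 40.4%.

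The 6 shared regions with the most neighbours differed in which factors surrounded them. The shared region at chr2:167677032-167677145 had 7 further Nkx2-5 and 7 further Tbx3 regions within 10 kb and no further Gata4 region. At chr19:40443067-40443214 there were 2 further Gata4, 4 Nkx2-5 and 4 Tbx3 regions, and at chr4:45487911-45488172 there were 2, 4 and 3. All 3 factors had further calls at the second and the third of these sites. The next were chr5:123586639-123586749 with 1, 3 and 5, chr9:119378868-119379102 with 0, 5 and 3, and chr3:101311344-101311546 with 2, 3 and 2, the first by position of 4 regions with 7 neighbours.

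Joined with all calls across gaps of 10 kb or less, the 174 shared regions fell into 166 domains. Of these, 68 held exactly 3 calls, so nothing but the shared region itself, 84 held 4 to 9 and 14 held 10 or more. The largest spanned 41.3 kb at chr2:167651278-167692591, with 25 calls of which 1 was Gata4, 10 Nkx2-5 and 14 Tbx3. A domain at chr18:24997525-25030972 (33.4 kb) held 2 shared regions and had 4 Gata4, 6 Nkx2-5 and 4 Tbx3 calls. Domains were not counted around other Gata4 regions, so the domain counts have no background here.

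Some shared regions stood alone. A further call of any factor lay within 50 kb of 147 shared regions (84.5%, exact 95% interval 78.2 to 89.5%), and the other 27 had none. The share was 77.4% over all Gata4 regions not set apart. It was 85.4% for those shared with Tbx3 only, 80.5% for those shared with Nkx2-5 only and 73.6% for Gata4 alone. The median width of these 27 isolated regions was 160 bp for Gata4 (95% interval 134 to 180), 184 bp for Nkx2-5 (136 to 200) and 157 bp for Tbx3 (116 to 202), against 176, 201 and 163 bp in the 147 others. A median of 104 bases (55 to 132) was common to all 3 calls in the isolated regions and 97 (84 to 104) in the others. The median distance of Gata4 and Nkx2-5 centres was 26.5 bp (17.5 to 59.5) in the isolated regions and 49.5 bp (43.5 to 62) in the others. The intervals of this distance overlap between isolated and other regions, and no difference was tested.

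Shared regions were spread over the genome, and most stood far from the next one. The nearest other shared region lay a median of 3.42 Mb away (interquartile range 0.503 to 8.22 Mb), and 154 of the 174 had none within 50 kb. The other 20 formed 9 groups. The distances and groups were not computed for other Gata4 regions, so they have no background here either. Because a few Gata4 calls overlapped the same Nkx2-5 or Tbx3 call, the 174 regions stand for 171 separate loci.

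The largest group was on chromosome 3, with 4 shared regions over 89.0 kb (chr3:101311344-101400389). The first pair, at 101311344 to 101311546 and 101311625 to 101311765, was 78 bp apart and shared a 357 bp Nkx2-5 call. The third and the fourth, at 101355809 to 101356136 and 101400202 to 101400389, each followed after a gap of about 44 kb (44.0 and 44.1 kb). The span held 6 calls of each factor. No other group had more than 2 shared regions.

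Close pairs were of different make. On chromosome 15, the Gata4 calls at 74917062 to 74917239 and 74917294 to 74917469 both overlapped a 345 bp Nkx2-5 and a 322 bp Tbx3 call, so that pair is 1 locus. On chromosome 5, the Gata4 calls at 147072572 to 147072684 and 147072742 to 147072932 each had their own Nkx2-5 call, of 107 and 161 bp, under a single Tbx3 call of 358 bp. On chromosome 17, the shared regions at 5997507 to 5997607 and 5997885 to 5998077 each had their own calls of all 3 factors, 277 bp apart. Separate factor calls thus repeated within 1 kb at the last of these.

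Pairs a few kb apart were found on chromosome 7 at 86503673 to 86508477 (gap 4.59 kb) and 119799702 to 119804041 (3.88 kb), and on chromosome 17 at 73571545 to 73575585 (3.53 kb). Pairs further apart lay on chromosome 18 at 25007149 to 25020351 (12.8 kb) and 35182056 to 35212105 (29.7 kb). In the last, the first shared region is 1 of the 3 without a common base.

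The share of Gata4 regions that also held Nkx2-5 and Tbx3 varied between chromosomes, with wide intervals. It was 10.5% over all (174 of 1665 Gata4 regions not set apart, exact 95% interval 9.02 to 12%). Chromosome 12 had the highest share, 12 of 65 (18.5%, 9.92 to 30.0%), followed by chromosome 17 with 12 of 72 (16.7%, 8.92 to 27.3%) and chromosome 18 with 11 of 73 (15.1%, 7.77 to 25.4%). Chromosome 14 had the lowest, 1 of 41 (2.44%, 0.0617 to 12.9%), its region being chr14:63497043-63497154, and chromosome 2 had 5 of 106 (4.72%, 1.55 to 10.7%). By number, chromosomes 3, 4 and 7 had the most, 14 each. The number of protein-coding genes was taken from the GRCm38 gene table as a count only. Per 100 genes, chromosome 18 had 2.15 shared regions (from 11), chromosome 14 had 0.118 (from 1) and the median chromosome 0.799. No interval was computed for these rates per gene. For the share of Gata4 regions, the interval of each of the 19 chromosomes includes the overall 10.5%.

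**Figure D5:**
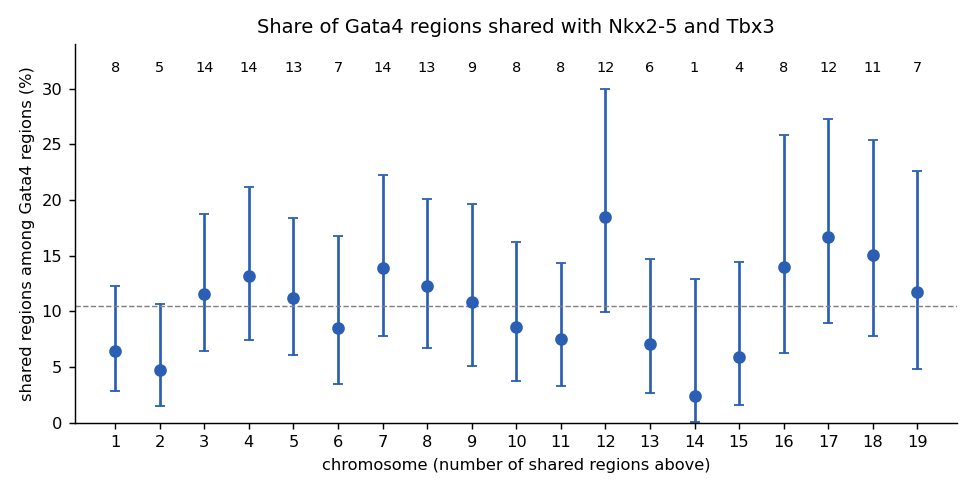
Share (%) of the Gata4 regions of each chromosome that were shared with Nkx2-5 and Tbx3, with exact 95% intervals, without regions set apart; the numbers above are counts of shared regions and the dashed line is the share over all (10.5%). Chromosome 12 is highest (18.5%) and chromosome 14 lowest (2.44%), and every interval crosses the line.

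The overlap rule divides regions that lie a few bases apart. Just inside it, chr19:40509652-40509752 shared 4 bases with Nkx2-5, chr17:65898266-65898374 shared 7 bases with Tbx3 and chr4:107634865-107635082 shared 10 bases with Tbx3. Just outside it, chr5:104058492-104058626 overlapped Nkx2-5 and lay 1 bp from a Tbx3 call, and chr1:155769794-155769922 and chr9:121238465-121238581 overlapped Nkx2-5 and lay 3 bp from one. In all, 31 Gata4 regions missed the rule by at most 100 bp and 92 by at most 1 kb. With the rule applied from each of the other lists in place of Gata4, 205 of 6619 Nkx2-5 regions (3.1%) and 207 of 13191 Tbx3 regions (1.57%) on chromosomes 1 to 19 themselves overlapped both other lists, counted with the regions set apart. This is another rule than the overlap with a Gata4 region used above.

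The 27 regions set apart were 13.4% of the 201, against 4.42% of all 1742 Gata4 regions on these chromosomes, which include the 27. Any call at a region could set it apart, so regions with 3 calls had more chances than those with 1. Whether this accounts for the difference was not tested. Width set apart 22 and an early start 5. Of the 27, 13 lay in 3 blocks: 5 at chr2:98502390-98507490, 5 at chr9:3000003-3035979 and 3 at chr17:39979944-39985770. The other 14 stood singly, and in 15 of the 22 wide regions just 1 of the 3 calls reached 400 bp. The Nkx2-5 call reached it in 16 of the 22, the Gata4 call in 8 and the Tbx3 call in 8. The widest single Gata4 call was the 3383 bp one at chr17:39979944-39983326, under a Tbx3 call of 3390 bp. At the limit itself, the widest call that stayed in was the 399 bp Gata4 call at chr19:53790986-53791384, followed by Nkx2-5 of 384 bp at chr10:111373850-111374025 and Tbx3 of 381 bp at chr9:35112797-35113080, and the narrowest that fell out were calls of 403 bp (Gata4, chr16:7100091-7100493) and 406 bp (Nkx2-5, chr7:56401287-56401432). Calls on the 2 sides of the limit thus differed by a few bp.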

How the data were processed

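Region lists of Gata4, Nkx2-5 and Tbx3 were used, 1 library each. Per the file headers they are browser tracks, and the values the authors deposited are chromosome, start and end only; read depth, score and enrichment are unknown. Per the submitters' processing notes, positions refer to mm9. How reads were aligned, how peaks were called and at what threshold, and whether the control library was used is not stated in these sources. BED starts were read as counted from 0 and printed from 1. Overlap means at least 1 shared base; where several regions overlapped a Gata4 region, the one sharing most bases was measured. Shares carry exact Clopper-Pearson 95% intervals and medians exact binomial order-statistic 95% intervals, which cover counting and spread within a list only. No p-value was computed. Further regions are those within the stated gap of a Gata4 region that do not overlap it.

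The shared regions, the measures and the lists of named regions were chosen with earlier results of these data known. Named are the 12 widest by mean rank, the 12 with the closest centres, the groups within 50 kb, the 6 with most neighbours within 10 kb and 3 on each side of the rule. The overlap code was tested on simulated data. Planned descriptions of gene starts and motifs were not run, as no mm9 genome or annotation was used here. Python 3.11.15, pandas 2.3.3, numpy 2.4.6 and scipy 1.17.1 were used.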

Additional observations from a re-analysis of the deposited data

How the results depend on the processing

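Of 45 alternatives to the number of shared regions, their median widths and centre distances and the share with a neighbour, 39 stayed within 1.5 times (the number) or within the 95% interval (the others). The number was 263 with Nkx2-5 and Tbx3 within 1 kb and 54 with the wider 50% of each list, against 174. A width limit of 300 bp, which removes wide calls by construction, gave medians of 172 bp for Nkx2-5 and 149 bp for Tbx3, against 191.5 and 162 bp. The share of shared regions with a further region was 33.9% within 2 kb and 84.5% within 50 kb, against 60.9% within 10 kb. The number ranged from 128 to 202 under the other alternatives: overlap of at least 50% (129), centres within 100 bp (128) or 250 bp (202, chosen after seeing the data), no region set apart (201), a limit of 300 bp (130), a common base (171) and removal of regions near wide calls (172). A common base and the removal near wide calls kept nearly all 174 regions. These alternatives could therefore hardly move the medians or the share, and say little about stability. Planned descriptions of gene starts and motifs were not run. No paired analysis was possible because each factor has 1 library, and leaving out a replicate was not possible for the same reason. Without depth, a missing call in one list cannot be told apart from low coverage.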

Other observations

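Outside chromosomes 1 to 19, 14 Gata4 regions were listed, and 4 of these, all mitochondrial, also overlapped both other lists.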
